A study of Homo sapiens with 10 samples.

Results

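Peaks of poly(A) 3′-seq from IMR-32 cells were examined in 9 genes that neuroblastoma genetics links to chromatin or telomeres, SMARCA4, ARID1A, ARID1B, EZH2, KMT2A, HDAC2, CHD5, ATRX and TERT. All peaks whose summit lay in the GENCODE 44 body of one of the 9 genes, or up to 600 bp past its 3′ end, were taken, which gave 245 of the 178837 deposited peaks. IMR-32 is an established line of human neuroblastoma cells. In poly(A) 3′-seq, oligo(dT) primes on polyadenylated RNA, and reads begin where the poly(A) tail joins the transcript. The list pools 10 libraries: CDK12 sh22 (2), CDK12 sh98 (2), CDK13 sh701 (2), CDK13 sh704 (2) and shGFP (2), the last being the control hairpin. All cells had been transduced with a lentiviral shRNA vector and selected with puromycin, control cells included. CDK12 and CDK13 are kinases of the RNA polymerase II tail, and the libraries were made to ask how their loss affects where transcripts end. The deposited list holds no value per library and no strand, so no difference between knockdown and control cells, and no spread between replicates, can be given for these genes.

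SWI/SNF (BAF) complexes use the ATPase SMARCA4 to move nucleosomes, and ARID1A and ARID1B are alternative subunits of the same complexes. EZH2 is the catalytic subunit of Polycomb repressive complex PRC2, KMT2A is a histone H3 methyltransferase that keeps developmental genes active, HDAC2 removes acetyl groups from histones within corepressor complexes, and CHD5 is a neuronal nucleosome remodeller on the short arm of chromosome 1, which is often lost in neuroblastoma. ATRX works with DAXX to place a histone H3 variant at telomeres and repeats, and its loss is known from tumours that maintain telomeres without telomerase. TERT is the catalytic subunit of telomerase, so the label of chromatin regulator does not describe it, and it stands in the group for its role in high-risk neuroblastoma. A poly(A) signal, most often AATAAA or ATTAAA, normally lies a short distance upstream of the cleavage site at the 3′ end of an mRNA, whereas oligo(dT) can also prime on stretches of A inside a transcript.

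Each gene had at least 1 terminal peak, a peak whose summit lay no more than 200 bp before and 600 bp after an end annotated for a transcript of that gene (9 of 9, compared with 68.7% of the 20033 protein-coding genes). The sequences around the signal of the strongest terminal peak are shown first for 8 of the genes, because they show which hexamers lie upstream of these peaks. They are reference sequence of GRCh38 on the strand of the gene, 5′ to 3′, and the capitals mark the hexamer nearest to the 3′ edge of the peak, which is the estimate of the cleavage site used here (AATAAA or ATTAAA within 50 bases of the edge, otherwise any of 12 hexamers of the study within 100 bases).
SMARCA4 (chr19:11062252-11062281, plus): ataaATTAAAccaacaacaaaacgcacagc
ARID1A (chr1:26781090-26781119, plus): ataaAATAAAaatggctttcccagtccttg
ARID1B (chr6:157208031-157208060, plus): gggaATTAAAgaaataattaatttgaacag
EZH2 (chr7:148807380-148807409, minus): tttgAATAAAgaatacttgaacttgtcctt
HDAC2 (chr6:113940711-113940740, minus): ctttATTAAAaaattgtacttggattatct
CHD5 (chr1:6101787-6101816, minus): ttttAATAAAtcctttgggaaaggatttaa
ATRX (chrX:77505527-77505556, minus): atatACTAAAttctgtaaagggagatctct
TERT (chr5:1253171-1253200, minus): actgAATATAtgagtttttcagttttgaaa
The hexamer started 25 bases before the 3′ edge in CHD5, 30 bases before it in SMARCA4, 34 in EZH2 and 35 in ARID1B. It started 67 bases before the edge in HDAC2 and 76 in ARID1A, outside the window of 50 bases. ATRX and TERT had neither of the 2 common hexamers near the edge and were shown with ACTAAA and AATATA, 48 and 47 bases before it.

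The strength of these peaks is given as the pileup, the number of reads that cover the summit after each read is extended to 100 bp, which was recovered as a whole number from the deposited fold and p-value. The caller options listed in the paper include none for repeated reads at a position, and by default they are dropped. No pileup in the list exceeded 200. If duplicates were dropped, as by default, a pileup counts distinct read positions and levels off at strong sites. Distances and sequences below refer to the 3′ edge and pileups to the summit, which lay a median of 55 bp upstream of the edge, over 100 bp upstream in 17 of the 245 peaks and at most 614 bp. In bulk RNA, fewer cells with a transcript and less of it per cell cannot be told apart. The strongest terminal pileup was 61 reads in HDAC2, 51 in SMARCA4, 48 in ATRX, 36 in ARID1B and in KMT2A, 30 in ARID1A, 21 in EZH2, 16 in TERT and 15 in CHD5. Of the protein-coding genes with a terminal peak, 1.90% had a pileup at least as high as that of HDAC2, 5.32% as that of SMARCA4, 7.15% as that of ATRX, 20.1% as those of ARID1B and KMT2A and 31.7% as that of ARID1A. The corresponding shares were 57.5% for EZH2, 73.7% for TERT and 76.8% for CHD5, so that these 3 genes were in the lower part of the range of terminal pileups. The exact Poisson intervals of all 8 pairs of neighbours in this order overlapped, whereas HDAC2 (46.7 to 78.4) lay above EZH2 (13.0 to 32.1), TERT (9.15 to 26.0), CHD5 (8.40 to 24.7) and ARID1A (20.2 to 42.8). These intervals treat the pileup as a Poisson count of independent reads and cover counting error only. If duplicates were dropped, they do not describe the error in a count of all reads. Marker genes of cell types were also counted: 10 of 10 adrenergic neuroblastoma markers had a terminal peak, with strongest pileups from 16 to 114, as did 4 of 6 fibroblast markers (8 to 14), 1 of 3 epithelial markers (EPCAM, 13) and 0 of 3 blood markers. The share over all protein-coding genes was 68.7%, close to that of the fibroblast markers, so presence alone separates cell types weakly.

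**Figure D1:**
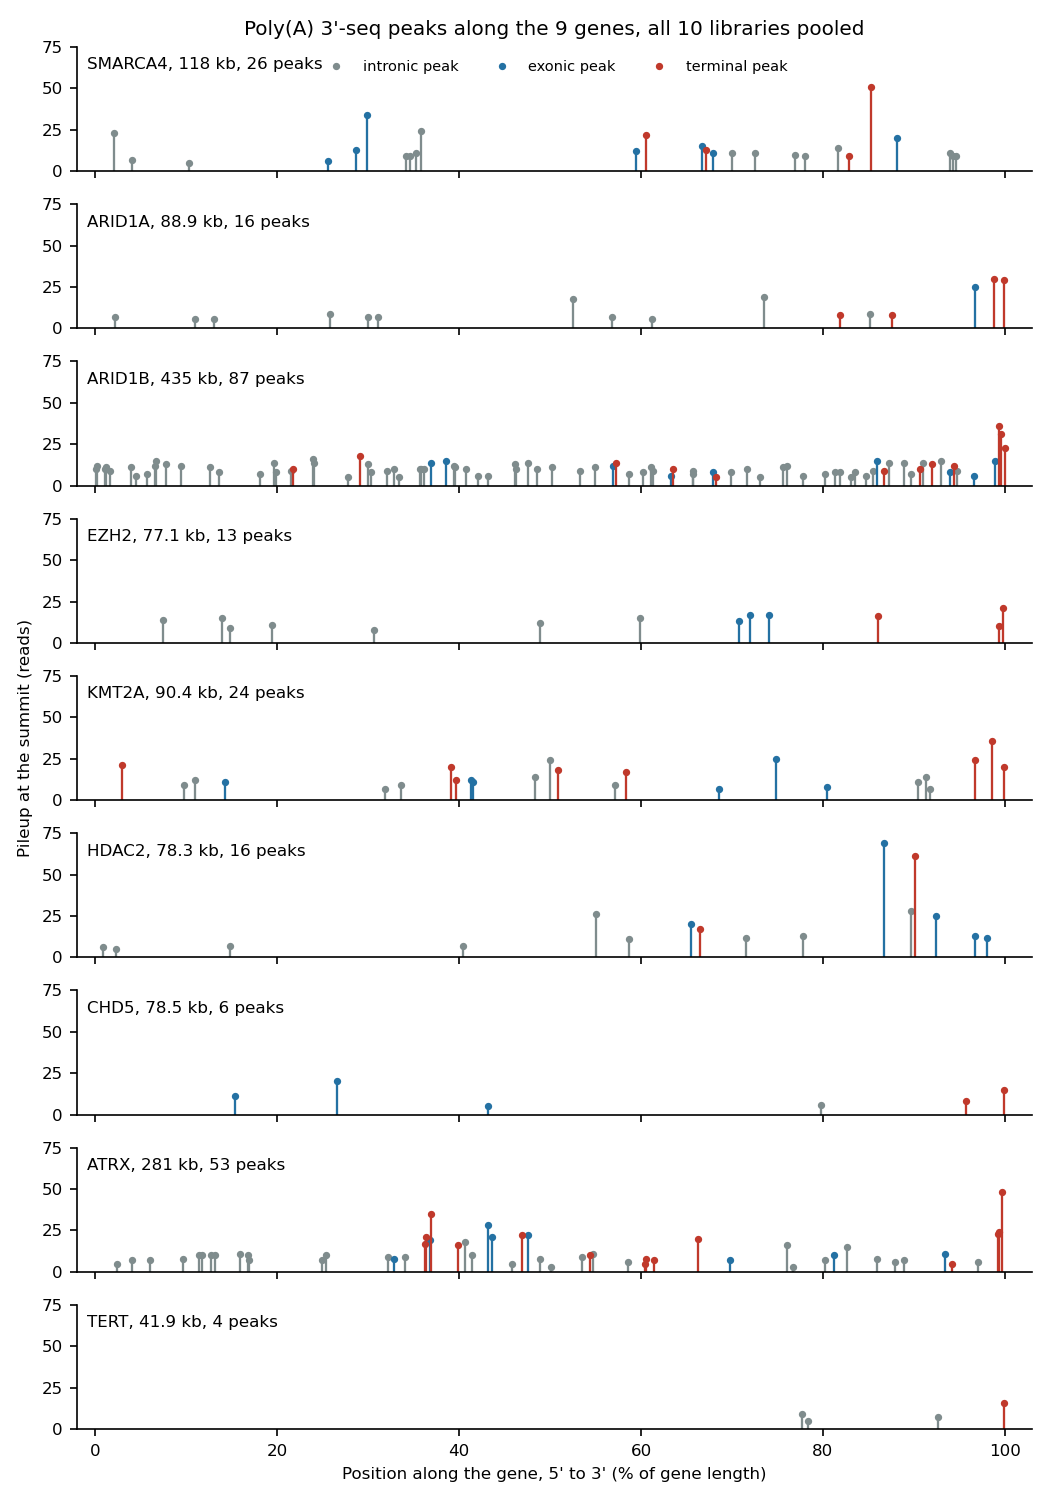
Pileup at the summit (reads, vertical axis) of each peak along the 9 genes, from the 5′ end to the 3′ end in percent of gene length, with terminal peaks in red, exonic peaks in blue and intronic peaks in grey. The highest peaks of SMARCA4, ARID1A, ARID1B, EZH2, KMT2A and ATRX are terminal peaks at the right, the highest peaks of HDAC2 (69) and CHD5 (20) are exonic, and ARID1B and ATRX hold 87 and 53 peaks.

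Over the 9 genes, 50 peaks (20.4%, 95% Wilson interval 15.8% to 25.9%) were terminal, 42 (17.1%, 12.9% to 22.4%) were exonic and 153 (62.4%, 56.2% to 68.3%) were intronic. Over all protein-coding genes annotated in the same way, 18.8% of peaks were terminal, 10.3% exonic and 70.9% intronic. ARID1B alone held 87 of the 245 peaks, and without it the intronic share was 55.1%. The genes carry many annotated ends inside their bodies, from 5 in CHD5 and TERT to 41 in SMARCA4, and of the 50 terminal peaks 17 (34%, 22.4% to 47.8%) lay in the 3′ UTR of the canonical transcript, against 58.3% of all terminal peaks of protein-coding genes. Its introns held 24 (48%, 34.8% to 61.5%), against 23.4%, and its coding exons 9 (18%, 9.77% to 30.8%), against 8.03%. The 17 in the 3′ UTR had a median pileup of 24 (8 to 61), and 9 of them had AATAAA or ATTAAA within 50 bases of the 3′ edge. The 24 in introns had a median pileup of 10 (5 to 22), 17 of them had at least 7 A among the 10 genomic bases downstream of the 3′ edge, and 4 had either hexamer. Of the 24 in introns, 12 were within 50 bp of an annotated end of another transcript, and the 3′ UTRs are described separately.

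Among all 50 terminal peaks, at least 7 A lay downstream of 25 (50%, 36.6% to 63.4%), against 20% of the terminal peaks of protein-coding genes, and AATAAA or ATTAAA lay upstream of 15 (30%, 19.1% to 43.8%), against 51.3%. Both a hexamer and fewer than 7 A were found for 13 (26%, 15.9% to 39.6%), against 48.6%, and any of the 12 hexamers within 100 bases for 33 (66%, 52.2% to 77.6%), against 77.7%. A −log10 q-value of 20 was reached by 12 (24%, 14.3% to 37.4%), against 26.7%. The share of strong peaks was thus near the background, whereas A-rich edges were more frequent and hexamers less frequent than in the background, without a test. Among the 42 exonic peaks the shares were 47.6% with at least 7 A (20 peaks, against 31.5%), 9.52% with AATAAA or ATTAAA (4, against 26.7%) and 7.14% with both a hexamer and fewer than 7 A (3, against 23.4%). Any of the 12 hexamers was found for 23 exonic peaks (54.8%, against 64.2%), and 7 reached a −log10 q-value of 20 (16.7%, against 12.8%).

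The 3′ UTRs of the canonical transcripts held 20 peaks, of which 11 (55.0%, 34.2% to 74.2%) had AATAAA or ATTAAA within 50 bases upstream, against 59.8% of the 24872 3′ UTR peaks of all protein-coding genes. At least 7 A downstream were found for 4 of the 20 (20%, 8.07% to 41.6%), against 12%. A distance of at most 50 bp separated 14 of the 20 from an annotated transcript end.

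SMARCA4 (ENSG00000127616.22), on the plus strand at chr19:10960932-11079426, had its only 3′ UTR peak 469 bp past the stop codon, with a pileup of 51. The signal ATTAAA shown above lay upstream of its 3′ edge, and only 1 of the 10 bases downstream of that edge was A. The 51 reads were counted at a summit 251 bp before the 3′ edge, upstream of this signal. The peak was 451 bp wide and its 3′ edge lay 12 bp past the canonical end, but its summit lay more than 200 bp before that end, and the peak was counted for another annotated end. GENCODE 44 extends SMARCA4 beyond this end with longer transcripts, and 4 weaker peaks lay there, an exonic peak with a pileup of 20 and 3 intronic peaks with pileups of 9 to 11.

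ARID1A (ENSG00000117713.21), at chr1:26693236-26782104 on the plus strand, had 2 peaks in its 3′ UTR of almost equal height. The proximal peak, 413 bp past the stop codon, had a pileup of 30, and the distal peak, 1354 bp past it and 6 bp past the canonical end, had a pileup of 29. The sequences at both edges differ, however: 9 of the 10 bases downstream of the proximal edge were A, compared with 2 at the distal edge. These 10 bases are shown in capitals.
ARID1A proximal (chr1:26781150-26781179): ttttaatggtaaaaaaaaaaAAAAAAAATA
ARID1A distal (chr1:26782091-26782120): ttaaatcttggtaagactttTGTGAAGCTT

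ARID1B (ENSG00000049618.25), at chr6:156776020-157210779 on the plus strand, had 3 peaks in a 3′ UTR of 2888 bp, with pileups of 36, 31 and 23 at 178, 1374 and 2866 bp past the stop codon. The pileup was lower the farther the site lay from the stop codon, and the middle value lay within the interval of the highest (25.2 to 49.8) and the distal value below it. The middle peak was 516 bp wide, and its 31 reads were counted at a summit 919 bp past the stop codon, 455 bp before its 3′ edge. Each of the 3 had a common hexamer within 50 bases and at most 3 A of 10 downstream, and the distal peak lay 22 bp before the canonical end. The middle site of ARID1B resembled the distal site of its paralog ARID1A, and both are shown with the hexamer in capitals.
ARID1A distal (chr1:26782086-26782115): gtacATTAAAtcttggtaagacttttgtga
ARID1B middle (chr6:157209241-157209270): gtacATTAAAtcttgttaagcactgtgatg
The first 15 bases of these windows were identical, and 22 of the 30 positions in all, compared with 10 to 13 of 30 for the other 5 pairings of an ARID1A with an ARID1B window. The sites were 1354 and 1374 bp past their stop codons. The ARID1B window belongs to the 3′ edge of the wide peak and not to its summit. This pair was noticed after the sequences had been seen, and the resemblance of the 2 sites is a description.

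EZH2 (ENSG00000106462.12), at chr7:148807257-148884321 on the minus strand, has the shortest 3′ UTR of the 9 genes, 263 bp, and held a single peak in it, with a pileup of 21, whose 3′ edge lay 11 bp past the canonical end. A weaker peak of 10 reads in the last intron had its 3′ edge 331 bp before the canonical end. EZH2 had 4 further peaks in coding exons with pileups of 13 to 17, in exons 5, 6, 7 and 10, so that the highest pileup within its coding sequence was close to that at its end.

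KMT2A (ENSG00000118058.25), at chr11:118436456-118526832 on the plus strand, had 3 peaks in a 3′ UTR of 4660 bp, with pileups of 24, 36 and 20 at 1747, 3479 and 4659 bp past the stop codon. For the middle and highest peak 9 of the 10 bases downstream were A, whereas the distal peak, 1 bp from the canonical end, had AATAAA 26 bases upstream and 4 A downstream (chr11:118526802-118526831, aattAATAAAcatgtcaagtttattgctgc). All 3 peaks also lie within TTC36-AS1, an annotated RNA of the opposite strand, and the list has no strand to separate them. On the opposite strand, the peaks had 1, 5 and 1 A of 10 downstream of their other edge. The proximal peak had AATAAA or ATTAAA within 50 bases on the opposite strand and not on the strand of KMT2A, and the other peaks the reverse.

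HDAC2 (ENSG00000196591.12), at chr6:113933028-114011308 on the minus strand, has the longest 3′ UTR, 8030 bp. Its 4 peaks were spread along the UTR, with the highest near the start of it. The pileup was 61 at 388 bp past the stop codon, then 25 at 2242, 13 at 5544 and 12 at 6492 bp. The last of these peaks lay 1538 bp before the canonical end, and the strongest 7642 bp before it. AATAAA lay within 50 bases of the peaks at 2242 and 6492 bp, and GATAAA at 5544 bp. The summit pileups of the 4 peaks summed to 111, the largest sum of the 9 genes, next to 95 in ATRX and 90 in ARID1B with 3 peaks each. This sum depends on the number of peaks and is not a total of reads. HDAC2 also had the highest pileup of all 245 peaks, 69 reads, in its coding exon 12.

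CHD5 (ENSG00000116254.18), at chr1:6101787-6180321 on the minus strand, had 2 peaks in its 3′ UTR of 4493 bp. The distal peak had a pileup of 15, AATAAA 25 bases upstream and its 3′ edge 1 bp from the canonical end, and the proximal peak had a pileup of 8 and coincided with the end of another transcript, 1197 bp past the stop codon. With 6 peaks in 78.5 kb, CHD5 was the gene with the fewest peaks for its length.

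ATRX (ENSG00000085224.23), at chrX:77504880-77786233 on the minus strand, had 3 peaks in its 3′ UTR of 3471 bp, and none within 600 bp of the canonical end. The pileups were 23, 24 and 48 at 1435, 1759 and 2846 bp past the stop codon, and the highest was the most distal, with 3 A of 10 downstream. Its 48 reads were counted at a summit 280 bp before its 3′ edge, upstream of the hexamer shown above. The proximal peaks had 10 and 8 A of 10 downstream and neither AATAAA nor ATTAAA within 50 bases. The proximal one is shown with the 10 downstream bases in capitals (chrX:77506906-77506935, cttaagaattccaaaaaaaaAAAAAAAAAA).

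TERT (ENSG00000164362.21), at chr5:1253147-1295068 on the minus strand, had 4 peaks in all, a terminal peak with a pileup of 16 whose 3′ edge lay 3 bp from an annotated end and 17 bp past the canonical end, and 3 intronic peaks with pileups of 5, 7 and 9. The terminal peak lies within an unnamed RNA gene of the opposite strand (ENSG00000287486), so that its assignment to TERT rests on position. Downstream of the edge 3 of 10 bases were A on the strand of TERT, and 4 of 10 on the other strand. No peak lay in the coding exons of TERT.

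**Figure D2:**
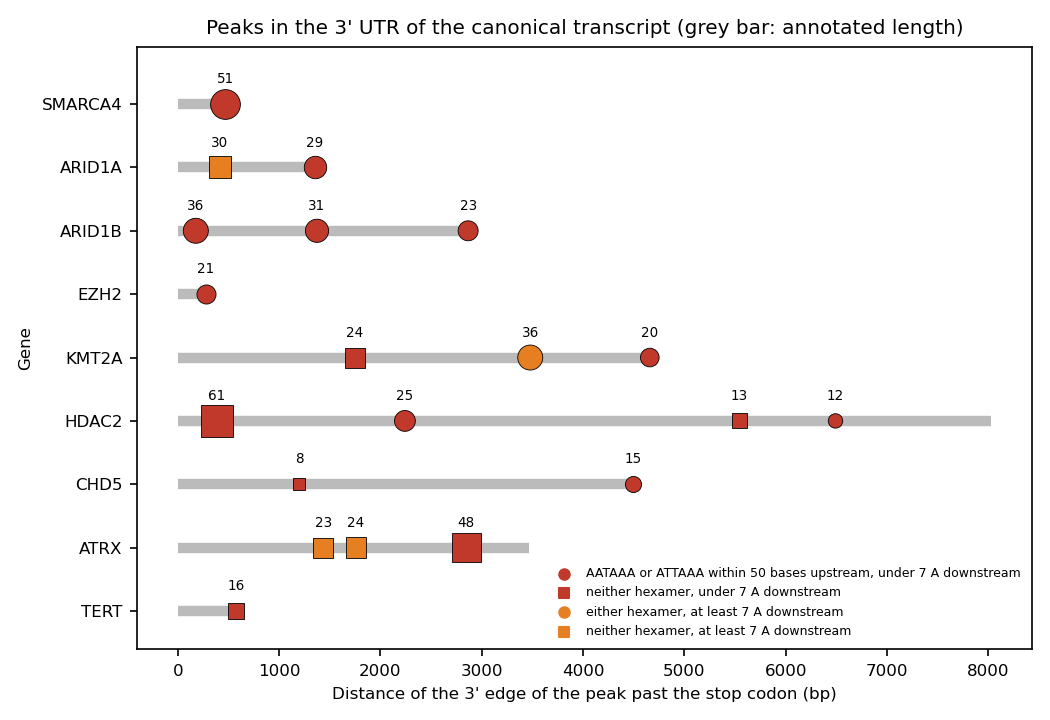
Peaks in the 3′ UTR of the canonical transcript of each gene, by the distance of their 3′ edge past the stop codon in bp (horizontal axis), with the pileup in reads as the size and label of each point and the grey bar as the annotated 3′ UTR. Circles have AATAAA or ATTAAA within 50 bases upstream, squares have neither, and orange points have at least 7 A among the 10 bases downstream. HDAC2 has its highest peak (61) near the stop codon, whereas ATRX (48) and CHD5 (15) have it toward the end of the UTR.

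Peaks in coding exons were the strongest group outside the 3′ UTRs. The canonical coding exons held 35 peaks with a median pileup of 17 (5 to 69), and the median over all coding-exon peaks of protein-coding genes was 12.5. AATAAA or ATTAAA lay within 50 bases upstream of 2 of the 35 (5.71%, 1.58% to 18.6%), against 12.4% of all coding-exon peaks, and at least 7 A lay downstream of 17 (48.6%, 33.0% to 64.4%), against 37.9%. ATRX held 14 of the 35, 4 of them in its large exon 9 of 3074 bp with pileups of 17 to 35, and KMT2A held 6, 4 of them in exon 3 of 2654 bp with pileups of 11 to 20. Exon 27 of KMT2A, its longest at 4249 bp among those with a peak, held 1 peak, of 25 reads. SMARCA4 and EZH2 had 4 each, CHD5 had 3, HDAC2 2, and ARID1A and ARID1B 1 each, in their last exons, with pileups of 25 and 15. The highest coding-exon peak had at least 7 A downstream in 4 of the 8 genes with such a peak, and 5 in ARID1A and ARID1B and 6 in EZH2 and KMT2A. For EZH2 the peak in exon 7 was taken, and a peak in exon 6 with 7 A downstream had the same pileup of 17. The 4 A-rich ones, HDAC2 (exon 12, pileup 69), SMARCA4 (exon 10, pileup 34), CHD5 (exon 3, pileup 20) and ATRX (exon 9, pileup 35), are shown with the 10 bases downstream of the 3′ edge in capitals.
HDAC2 (chr6:113943354-113943383, minus): aagataagaaagaaacagagGACAAAAAAA
SMARCA4 (chr19:10996347-10996376, plus): cgccaaggagaaaaagaagaAAAAGAAAAA
CHD5 (chr1:6159377-6159406, minus): agaaggagaaaaaagccaagCGAAAAAAGA
ATRX (chrX:77681726-77681755, minus): gaagaagcaaagaacttcatCTAAAAAGAA
These windows, chosen for their A, had 8, 9, 7 and 7 A among the 10 downstream bases. The ATRX peak was 767 bp wide, and its 35 reads lay 614 bp upstream of the window shown. In HDAC2 and CHD5 the coding-exon peak was higher than the strongest terminal peak (69 against 61 and 20 against 15), and both values lay within the interval of that terminal pileup.

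Introns held most peaks of the 9 genes but weak ones. The 153 intronic peaks had a median pileup of 9 (3 to 28), against 8 over all intronic peaks of protein-coding genes, and 4 of them (2.61%, 1.02% to 6.53%) reached a −log10 q-value of 20, against 2.72%. At least 7 A of 10 lay downstream of 109 (71.2%, 63.6% to 77.8%), against 66.8% of all intronic peaks, and 32 had A at all 10 positions. Any of the 12 hexamers lay within 100 bases of 56 (36.6%, 29.4% to 44.5%), against 49.5%. At the threshold, 26 had exactly 7 A and 19 had 6. The share was 81.8% in ARID1A (9 of 11), 80.0% in SMARCA4 (12 of 15), 77.3% in ARID1B (51 of 66), 71.4% in EZH2 (5 of 7), 70.0% in KMT2A (7 of 10) and 67.7% in ATRX (21 of 31). It was lower in HDAC2 (3 of 9), TERT (1 of 3) and CHD5 (0 of 1), where few peaks were present. Of the 9 in HDAC2, 4 lay before the canonical start and within HDAC2-AS2, a gene of the other strand. The strongest intronic peak had a pileup of 28 in HDAC2 (intron 13), 24 in SMARCA4 (intron 12) and KMT2A (intron 6), 19 in ARID1A (intron 4), 18 in ATRX (intron 10), 16 in ARID1B (intron 2), 15 in EZH2 (intron 3), 9 in TERT (intron 11) and 6 in CHD5 (intron 33). In EZH2 a peak in intron 1 had the same pileup of 15, and both had 10 A downstream. The peak of HDAC2 was assigned to its last intron by its summit, and its 3′ edge lay 33 bp past the stop codon. At least 7 A lay downstream of 4 of these 9 strongest peaks, those of HDAC2 (9), KMT2A (7), ARID1A (8) and EZH2 (10), and 5 or 6 A downstream of the other 5. The windows of ARID1A and EZH2, whose edges lie inside a run of A, and of SMARCA4, whose edge does not, are shown with the downstream bases in capitals.
ARID1A intron 4 (chr1:26758612-26758641, plus): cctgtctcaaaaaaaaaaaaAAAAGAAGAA
EZH2 intron 3 (chr7:148838067-148838096, minus): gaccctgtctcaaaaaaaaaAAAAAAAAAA
SMARCA4 intron 12 (chr19:11003366-11003395, plus): gtgaagaaagtggctcagaaGAAGAGGAAG

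**Figure D3:**
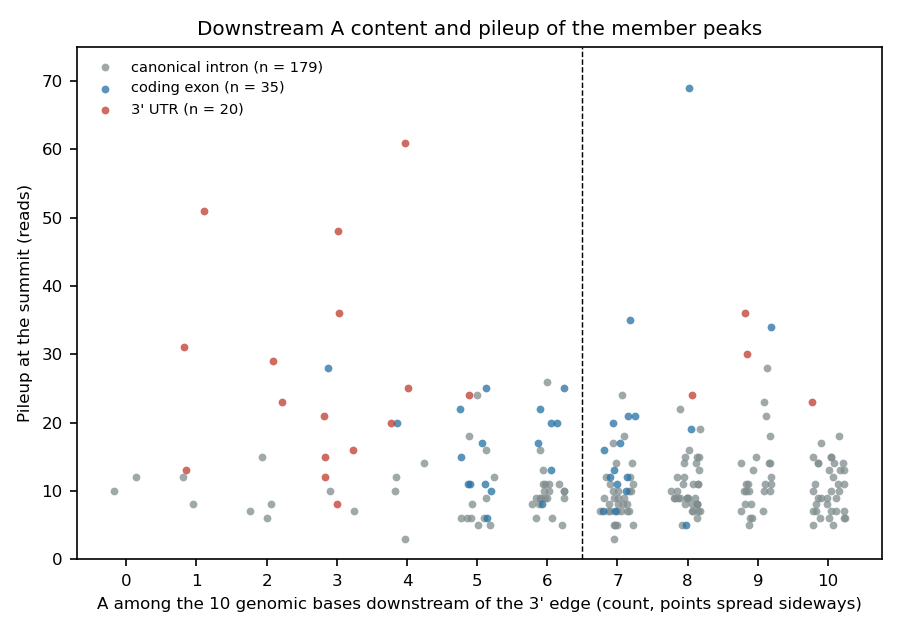
Pileup at the summit (reads, vertical axis) against the number of A among the 10 genomic bases downstream of the 3′ edge, for peaks in canonical introns (grey, n = 179), coding exons (blue, n = 35) and 3′ UTRs (red, n = 20), with the threshold of 7 as a dashed line. Most intronic points lie at the right with pileups of at most 28, and 16 of the 20 points of the 3′ UTRs lie left of the line.

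Intronic peaks with a poly(A) signal and little A downstream were few. AATAAA or ATTAAA lay within 50 bases upstream of 13 of the 153 intronic peaks (8.50%, 5.03% to 14%), against 17.3% of all intronic peaks, and 9 of these (5.88%, 3.13% to 10.8%) also had fewer than 7 A downstream, against 9.16%. They were 3 in ATRX, 3 in ARID1B and 1 each in SMARCA4, KMT2A and TERT, with pileups from 6 to 18. The sites of ATRX lay 27.2, 47.2 and 114 kb from the start of the canonical transcript, with pileups of 8, 10 and 18, and those of ARID1B 230, 264 and 367 kb from it, with pileups of 9, 11 and 6. The KMT2A site lay in the first intron, 8.73 kb from the start, with a pileup of 9. The TERT site lay in intron 13, 38.8 kb from the start, with a pileup of 7, and the SMARCA4 site, with a pileup of 11, lay past the canonical end. All 9 windows are given with the hexamer in capitals, since these are the intronic peaks that met both criteria.
ATRX, intron 10 (chrX:77671650-77671679, minus): tcaaAATAAAattttgaaatttgagatgag
ATRX, intron 1 (chrX:77738967-77738996, minus): aaaaATTAAAaaaattgcaaatgtaaataa
ATRX, intron 1 (chrX:77759007-77759036, minus): aataAATAAAtttaaaatttaacagccatg
ARID1B, intron 4 (chr6:157007579-157007608, plus): aaatATTAAAatagaaagtagagaattata
ARID1B, intron 4 (chr6:157041472-157041501, plus): tcttAATAAAtttcttaagaaatcttacta
ARID1B, intron 7 (chr6:157144516-157144545, plus): ttttAATAAAagcaagagctaagaaggagc
SMARCA4, past the canonical end (chr19:11072369-11072398, plus): tgccATTAAAaagactgaaattttggccag
KMT2A, intron 1 (chr11:118445258-118445287, plus): gcatATTAAAgataaggcaaaaaagaagaa
TERT, intron 13 (chr5:1256165-1256194, minus): gaaaAATAAAaacaaaaattagctgagcat
The hexamer started 7 bases before the 3′ edge in KMT2A and 13 to 32 bases before it in the other windows. Downstream of the edge, 2 of 10 bases were A in TERT and at the 27.2 kb site of ATRX, 3 in SMARCA4 and 5 or 6 at the other sites. A match of these letters is a description of the window and does not show that the site is used as a poly(A) signal.

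Per length of intron, the members had 13.7 intronic peaks per 100 kb (153 peaks in 1116 kb), compared with 11.1 per 100 kb over protein-coding genes that had introns and a terminal peak. Of the latter genes 77.3% had an intronic peak, as did all 9 members. ARID1B and KMT2A had 17.0 per 100 kb each, ARID1A 15.1, SMARCA4 14.6, HDAC2 14.3, ATRX 12, EZH2 10.6, TERT 8.33 and CHD5 1.46. The HDAC2 value includes 4 peaks before its canonical start, within HDAC2-AS2 of the other strand. The KMT2A value includes intronic peaks with pileups of 11, 14 and 7 within TTC36-AS1, also of the other strand. The paralogs ARID1A and ARID1B, which differ in intron length (72.9 and 389 kb), thus had 11 and 66 intronic peaks at similar spacing. Genes were set beside those of their own length class. The median was 11 per 100 kb in the 1171 genes over 200 kb, where 14.6% had at least the value of ARID1B and 44.1% at least that of ATRX. It was 13 in the 2431 genes of 50 to 100 kb, where 94.4% had at least the value of CHD5 and 27.1% at least that of KMT2A. CHD5 lay below the lower quartile of its class (8.08) and ARID1B above the upper quartile of its class (14.9), and the other 7 lay between the quartiles. Without its 4 peaks within HDAC2-AS2, and with the length of intron unchanged, HDAC2 would also lie below the lower quartile. Without its peaks within TTC36-AS1, KMT2A would lie below the median of its class. CHD5 also had the lowest terminal pileup of the 9 genes, and the part of its level in its low number of intronic peaks was not tested.

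By position on the canonical transcript, introns held 179 peaks, which include peaks at the ends of other transcripts. Of these, 131 (73.2%, 66.3% to 79.1%) had at least 7 A downstream, against 67.2% of all peaks in canonical introns, and 18 (10.1%, 6.46% to 15.3%) had AATAAA or ATTAAA upstream, against 18%.

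**Figure D4:**
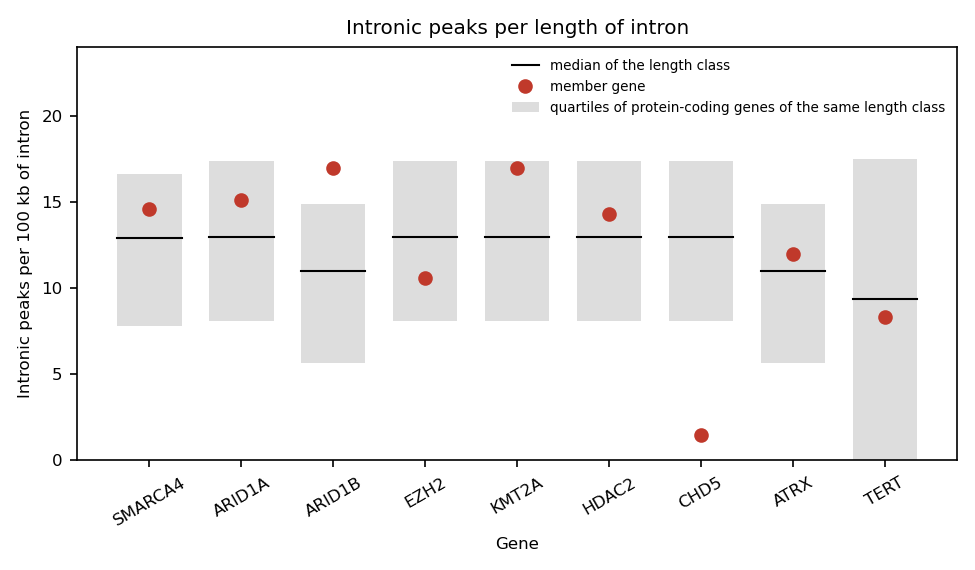
Intronic peaks per 100 kb of intron (vertical axis) in each of the 9 genes (red points), with the quartiles (grey bars) and the median (black line) of the same length class among protein-coding genes that have introns and a terminal peak. ARID1B (17.0) lies above and CHD5 (1.46) below the grey bar, and the other 7 points lie within it. The HDAC2 point includes 4 peaks before its canonical start, within HDAC2-AS2, and would lie below the bar without them. The KMT2A point includes peaks within TTC36-AS1, and would lie below the median without them.

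The first introns were set beside their share of intron length. In ARID1B, 10 of 81 peaks in canonical introns (12.3%) lay in the first intron, which holds 11.8% of the intron length. The corresponding values were 41.7% of peaks and 41.4% of length in ARID1A, 40% and 43.2% in KMT2A, 30.6% and 25.4% in ATRX, 62.5% and 49.6% in EZH2, 33.3% and 38.2% in HDAC2 and 17.6% and 24% in SMARCA4. None of the single intron peak of CHD5 and the 3 of TERT lay in the first intron, which holds 17% and 0.275% of the intron length. Fewer than 20 intron peaks were available in all but ARID1B and ATRX. None of the 9 genes had a peak within 2 kb downstream of the canonical start, against 30.1% of the 6258 protein-coding genes of at least 40 kb with introns and a terminal peak. Peaks of SMARCA4, KMT2A, HDAC2 and ARID1B lay just past this limit, at 2.30, 2.62, 2.89 and 2.98 kb. The count thus depends on the limit chosen. A peak within 10 kb was found in 7 of the 9, against 77.1%.

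Of the 245 peaks, 15 also lay within a gene of the other strand, 11 intronic and 4 terminal, in ARID1B (4), KMT2A (6), HDAC2 (4) and TERT (1). The 4 of HDAC2 lay in HDAC2-AS2 and had 4, 3, 2 and 0 A of 10 downstream on the strand of HDAC2, compared with 5, 7, 8 and 8 on the other strand. Of the 4 of ARID1B, 3 were close to the start of the gene and had AATAAA or ATTAAA within 50 bases on the other strand and not on the strand of ARID1B. Which strand these peaks come from was not tested.

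Partners and relatives of the 9 proteins were examined through lists of complexes and gene families. All listed genes are called partner genes here, although many are paralogs and not subunits of the same complex. All 85 listed genes had a terminal peak (100%, 95.7% to 100%), against 68.7% of protein-coding genes, and the median of their strongest terminal pileups was 33, against 23 over protein-coding genes with a terminal peak. Among 22 further SWI/SNF genes, the strongest terminal pileup ran from 9 in ARID2 to 71 in BRD7, a bromodomain subunit, with a median of 30.5. SMARCA2, the alternative ATPase to SMARCA4, had 52, next to 51 in SMARCA4. Of 10 PRC2 genes, the highest was PHF1 with 43, and EZH1, the paralog of EZH2, had 33 compared with 21 in EZH2. SUZ12 and EED, the core partners of EZH2, had 40 and 27. Of 14 genes listed with the KMT2 complexes, the coactivator NCOA6 was highest with 67 and MEN1, which binds KMT2A directly, had 38. Among 16 genes listed with the HDAC corepressors, MTA1 of the NuRD complex and the corepressor NCOR1 were highest with 57. HDAC1 and HDAC3 had 39 and 42 compared with 61 in HDAC2. The 8 other CHD remodellers ran from 27 in CHD8 to 76 in CHD4, all above the 15 of CHD5. Of the 15 genes around ATRX, DAXX and the telomere, H3-3B, which encodes the histone variant placed by ATRX and DAXX, was highest with 75, DAXX had 30, and the telomerase RNA-binding protein DKC1 had 46 compared with 16 in TERT. Intronic peaks of the lists were spaced at 10.3 to 17.0 per 100 kb of intron, around the 13.7 of the members.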

How the data were processed

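One pooled peak list of 10 poly(A) 3′-seq libraries was analysed. The authors trimmed the reads, mapped them to GRCh38 with STAR 2.5.1b, downsampled the libraries, which came from different batches, to the smallest size, merged them and called peaks with MACS2 2.1.1, extending reads to 100 bp. The paper also describes the removal of peaks that had no signal hexamer upstream but a long genomic stretch of A downstream. Whether the deposited list precedes or follows that step is not stated in the paper. The deposited fold is the ratio of the summit pileup to the local background of the pooled reads, after a constant is added to both. The deposited p-value and q-value are given as −log10. The deposited score repeats the q-value and was not used. The depth per library is unknown here.

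The members, lists and thresholds were chosen with earlier results of these data known. Pileups were recovered from fold and p-value (largest miss of −log10 p 0.000168). Each gene was annotated with its own GENCODE 44 transcripts, in the order terminal, exonic and intronic, and a peak shared by genes was counted in each. The canonical transcript is that tagged by Ensembl. Reference chromosome names and lengths matched the list. Motifs and A were read on the strand of the gene from the 3′ edge. The 12 hexamers were AATAAA and its variants at the first base, namely TATAAA, then CATAAA, then GATAAA, at the second base, namely ATTAAA, then ACTAAA, then AGTAAA, at the third, AAGAAA, at the fourth, AATGAA, and at the fifth, AATACA, then AATAGA, then AATATA, read on the strand of the gene alone. No test was made between groups. The text names all 9 genes, each strongest terminal and intronic peak, every intronic peak with a signal and fewer than 7 A, and the highest gene of each partner list. Other named partners and peaks, and the windows printed for them, were chosen after the values were seen. Python 3.11.15, numpy 2.4.6, scipy 1.17.1, pandas 2.3.3, pysam 0.24.0, samtools 1.23.1 and matplotlib 3.10.9 were used, and the steps were tested on simulated data. A sequence window of KMT2A is not reported here.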

Additional observations from a re-analysis of the deposited data

How the results depend on the processing

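No paired analysis was possible because the data are pooled with no value per library, so that leaving out a replicate was not possible either. Settings marked as added were chosen after seeing the data. Of 74 alternative values of the 9 main results, 53 stayed within the 95% interval or 1.5 times of the main value. Counts of genes were judged by the wide limit of 1.5 times, and all stayed within it. At a −log10 q-value of 20 or more, 6 of 9 members and 68 of 85 partner genes had a terminal peak. With the canonical transcript alone the counts were 6 and 75, and without peaks in genes of the other strand 8 and 77. With peaks of −log10 q-value 5 or more, the spacing of intronic peaks was 10.0 per 100 kb. At 20 or more, 23 peaks were left, 52.2% terminal and 17.4% intronic, with 0.358 intronic peaks per 100 kb. There 50% of the 4 intronic peaks were A-rich and 0 had a hexamer, and 50% of the 12 terminal peaks had one. With end windows of 100 bp on each side, 13.9% of peaks were terminal. With the canonical transcript alone, 2.56% were terminal and 76.5% intronic, 83.3% of the 6 terminal peaks had a hexamer, and ATRX, SMARCA4 and HDAC2 had no terminal peak, since by construction a summit over 200 bp before the canonical end is not counted. The A-rich share of intronic peaks, 71.2%, was 83.7% with at least 6 A, 54.2% with at least 8 A, and 32.0% at 50 bases downstream of the summit (added). The share with a hexamer was 66.0% of terminal and 36.6% of intronic peaks for 12 hexamers within 100 bases, 4% of terminal peaks when the search ended at the summit, 14.4% of intronic peaks at 50 bases downstream of it (added), and 52.9% of terminal peaks in 3′ UTRs alone (added). Without ARID1B (added), 55.1% of peaks were intronic. Without peaks in genes of the other strand, TERT had no terminal peak, and the strongest of KMT2A was 21. Beyond what each setting changes by construction, the cause was not tested. If duplicates were dropped, pileups level off at strong sites, which limits any ranking.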
